A study of Mus musculus with 15 samples.

Results

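The 10 genes described here encode transcription factors and regulators that mark naive, memory-like and innate-like states of T lymphocytes. They are the high mobility group factors Tcf7 and Lef1, the Wnt target Axin2, the nuclear factors Tox and Tox2, the E protein inhibitors Id2 and Id3, and the DNA-binding regulators Bach2, Satb1 and Myb. They were chosen by name from the 48795 genes in the tables, and all 10 were found by symbol and passed the filter on low counts. The cells were invariant natural killer T (iNKT) cells, a T lymphocyte population with a semi-invariant TCR that recognises glycolipids on CD1d. They were sorted from WT C57BL/6 mice aged 6 weeks as TCRβ+ cells stained by a CD1d tetramer loaded with PBS57 and negative for B220, CD11b, CD11c and CD8. All groups shared this strain, age and gate, with no other treatment named. Libraries came from thymus (n = 4), spleen (n = 4), mesenteric LN (mLN, n = 4) and inguinal LN (iLN, n = 3), in 2 batches. Replicates 1 and 2 were labelled batch Second and replicates 3 and 4 batch First, and the iLN has no replicate 1 among the samples used. The labels call the samples biological replicates without saying whether each is 1 mouse or a pool, and give samples of the same number in different tissues the same unit, without saying what a unit is. LNs were briefly digested with collagenase, DNAse and NADase, and the other tissues were mashed through a strainer without enzymes, so that digestion and the LN origin cannot be told apart.

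TCF-1, the product of Tcf7, and LEF-1 bind the same DNA letters through a high mobility group box, and can recruit β-catenin to activate genes such as Axin2 or corepressors to silence them. In developing iNKT cells, E proteins and their inhibitors Id2 and Id3 shape the choice between NKT1, NKT2 and NKT17 cells, the subsets that make IFNγ, IL-4 and IL-17. TOX is induced by TCR signalling in thymocytes and is needed for CD4 lineage and NKT cell development, Bach2 restrains effector programmes, Satb1 organises chromatin in thymocytes, and Myb is required for the double positive thymocytes from which iNKT cells arise.

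The DNA upstream of Lef1 and Axin2 is shown because these genes are known targets of TCF/LEF factors and had their highest levels in different LNs, Lef1 in mLN and Axin2 in iLN. The sequences are the 250 bases before a start annotated by RefSeq (GRCm38.p6), written 5′ to 3′ on the strand of the gene. Of the 4 windows of Lef1 the second and the last along the gene are shown. The former is chr3:131110073-131110322 on the + strand and overlaps the first window of the gene, and the latter, chr3:131156044-131156293 on the + strand, precedes a start inside the gene. The Axin2 window is chr11:108920099-108920348 on the + strand. None of the windows shown overlaps an annotated exon of its gene. Capitals mark the letters searched.
Lef1, upstream start: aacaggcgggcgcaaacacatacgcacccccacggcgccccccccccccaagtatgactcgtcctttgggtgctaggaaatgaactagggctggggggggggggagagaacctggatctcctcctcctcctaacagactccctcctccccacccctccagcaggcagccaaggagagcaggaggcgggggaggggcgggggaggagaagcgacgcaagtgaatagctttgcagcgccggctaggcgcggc
Lef1, last internal start: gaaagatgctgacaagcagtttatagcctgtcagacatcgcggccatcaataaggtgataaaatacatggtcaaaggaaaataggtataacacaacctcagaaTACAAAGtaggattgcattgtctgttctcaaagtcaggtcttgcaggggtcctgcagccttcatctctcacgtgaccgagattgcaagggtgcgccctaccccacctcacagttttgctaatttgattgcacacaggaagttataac
Axin2: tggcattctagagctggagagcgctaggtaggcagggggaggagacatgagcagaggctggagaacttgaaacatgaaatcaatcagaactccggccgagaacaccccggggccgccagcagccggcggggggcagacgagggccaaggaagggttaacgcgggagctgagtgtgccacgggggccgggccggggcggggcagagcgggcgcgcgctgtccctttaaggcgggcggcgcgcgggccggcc

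The TCF/LEF letters searched were CTTTG followed by A or T in each of the next 2 positions, on both strands. The E protein letters were the palindrome CAGCTG or its relative CAGGTG, also on both strands. The last Lef1 window held TACAAAG, the reverse complement of 1 of these forms, which began 147 bases before the start, and neither the other Lef1 window shown nor the Axin2 window held any of these letters. RefSeq gave 21 windows for 9 of the 10 genes, all but Tox. TCF/LEF letters were in 5 of the 21 windows (of Lef1, Satb1 and Tox2), beside 14.84% of 32851 windows of all genes. The 2 windows of Tox2 among these overlap and share 1 match, as do the 2 of Satb1. E protein letters were also in 5 of the 21 (of Tcf7, Id2, Lef1, Satb1 and Tox2), beside 27.74% of all windows. Of the 21 windows 11 overlapped an annotated exon of the same gene. Letters in a window describe the sequence only.

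Total expected counts per sample were between 1152702 (thymus replicate 2) and 8670570. Ribosomal RNA of the mitochondria took 10.5% to 23.1% of the counts, and genes overlapping nuclear rRNA took a median of 24.3% in batch First and 6.47% in batch Second. The defining transcripts of iNKT cells were present in every tissue, with Trav11, the Vα14 segment of the invariant TCR, between 145 and 335 CPM (counts divided by the effective library size, that is the total times the TMM factor, and scaled to a fixed total) and Cd3e between 862 and 1430. The summed CPM of 8 B cell genes was 83.8 to 145 in thymus, 186 to 252 in LNs and 205 to 523 in spleen, most of it from Ighm (76.4 to 233 CPM per sample), while Cd79a was at most 1.87 CPM in thymus and LNs and reached 20.04 CPM in a spleen sample. The myeloid gene Lyz2 reached 43.1 CPM in a spleen sample, and the summed CPM of 5 red cell genes was 24.0 to 117 in spleen, 1.71 to 14.7 in thymus and at most 4.84 in LNs. Rag1, a gene of immature thymocytes, was at 5.51 to 22.1 CPM in thymus, at 0 in both LNs and at most 0.150 in spleen. The part of such cells in the results below was not tested.

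On a scale that allows for transcript length (TPM), Satb1 was the most abundant of the 10 transcripts, with a median of 615 TPM over the 15 samples, followed by Id2 (296), Lef1 (181) and Tcf7 (86.7). Tox (28.2), Bach2 (17.4), Axin2 (14.0), Id3 (9.86) and Myb (5.58) were at lower levels and Tox2 (0.850) was near the limit of detection. Single samples spread widely around these medians, since RSEM also re-estimates the length of a gene from its isoforms in each sample. That length ran from 967 to 1886 bases for Lef1 and from 2063 to 8882 bases for Bach2, but only from 2321 to 2471 bases for Tcf7, and Id2 had 1270 bases in every sample. Differences between tissues are therefore given from counts, as CPM.

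**Figure D1:**
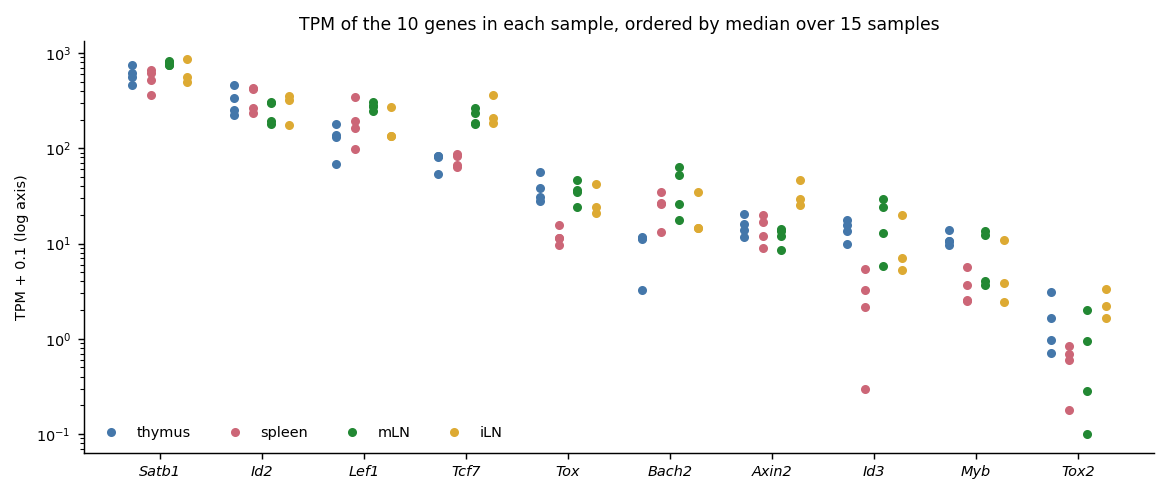
TPM + 0.1 on a log axis for the 10 genes in the 15 samples, 1 point per sample, coloured by tissue and ordered by the median over all samples. Satb1 (median 615 TPM) to Tcf7 (86.7 TPM) lie in the upper range and Tox2 (0.850 TPM) lies lowest.

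Tcf7 separated LNs from spleen and thymus, Tox separated spleen from thymus and mLN, and Lef1 separated mLN from thymus. Among the 10 genes, 3 differed over the 4 tissues at an adjusted p below 0.01 (Tcf7, 3.20e-06; Tox, 0.00104; Lef1, 0.00384; edgeR quasi-likelihood test with Benjamini-Hochberg adjustment over 13600 genes), beside 3.38% of all genes tested. For pairs of tissues a gene was called at an adjusted p below 0.01 and a fold change over 1.5. In mLN against spleen 2 of the 10 genes were called (Tcf7 and Tox; 0.654% of all genes), and in mLN against thymus 2 (Tcf7 and Lef1; 1.6%). In iLN against spleen 1 gene was called (Tcf7; 1.55%), and in iLN against thymus 1 (Tcf7; 1.5%). In thymus against spleen 1 gene was called (Tox; 1.32%), and in the mean of both LNs against the mean of spleen and thymus 1 (Tcf7; 1.72%). Each of these calls was in the direction of a higher level in the tissue named first. No member was called by the main edgeR fit in iLN against mLN (0.471% of all genes). DESeq2 called 1 there, and over all genes it made 303 calls where edgeR made 64. The median log2 fold change of the 10 genes was 0.50 in mLN, 0.74 in iLN and 0.12 in thymus, each against spleen, beside medians of 0.00, 0.01 and −0.01 over all genes tested. It was −0.05 in mLN and 0.09 in iLN against thymus, beside 0.03 and 0.03 over all genes, and −0.16 in iLN against mLN, beside −0.00045. These comparisons share samples, so their counts are not independent of each other.

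**Figure D2:**
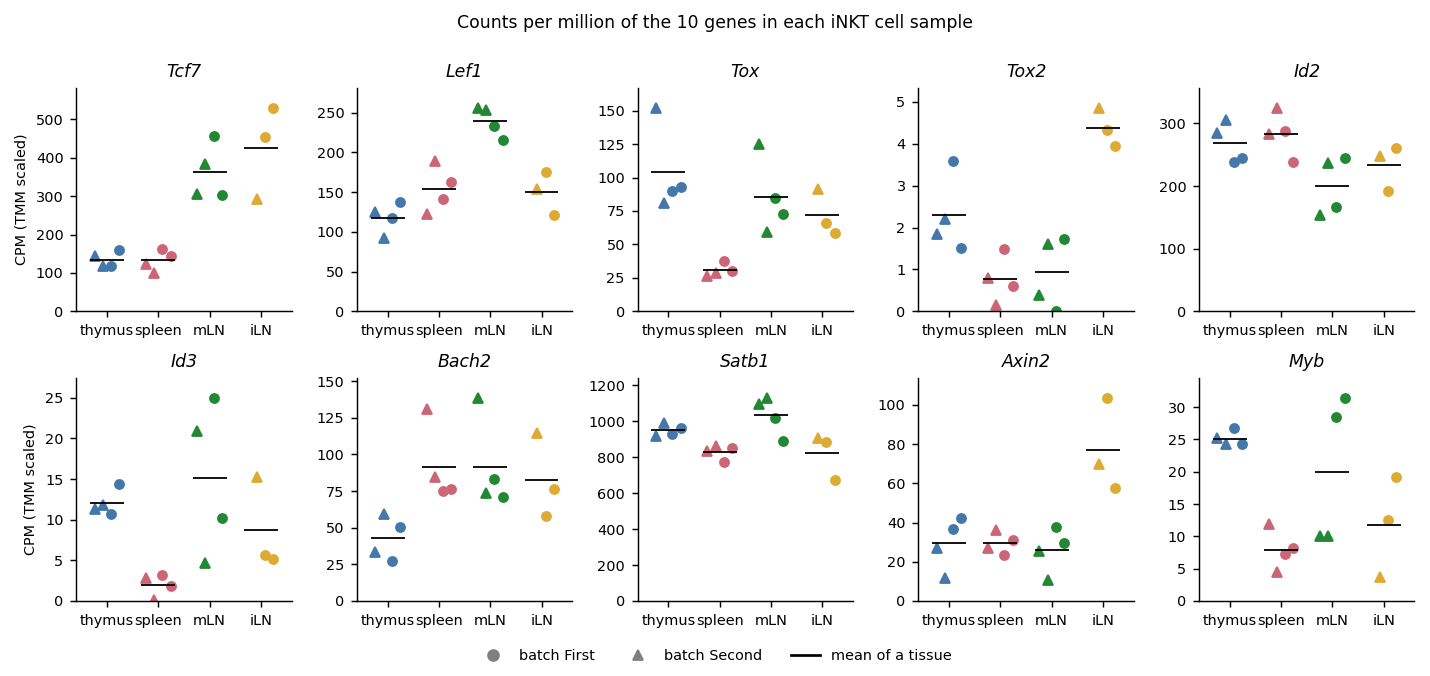
CPM of each of the 10 genes in each sample, on linear axes from 0, with batch First as circles, batch Second as triangles and the mean of a tissue as a line. All 7 LN samples of Tcf7 lie above all 8 samples of thymus and spleen, and all 3 iLN samples of Axin2 lie above every other sample.

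Tcf7 (ENSMUSG00000000782, chr11:52252371-52283014, − strand), which encodes TCF-1, had the clearest difference. Thymus samples 1 to 4 held 144, 119, 117 and 159 CPM, and spleen samples 1 to 4 held 123, 101, 162 and 145 CPM. In mLN samples 1 to 4 the values were 305, 384, 456 and 303 CPM, and in iLN samples 2 to 4 they were 291, 455 and 529 CPM. The lowest LN sample was thus well above the highest sample of spleen or thymus, while the groups of spleen and thymus overlapped, as did those of mLN and iLN. In bulk libraries such as these, a larger share of cells that carry a transcript and more of it per cell cannot be told apart. Means were 425 ± 121 CPM in iLN (SD, n = 3), 362 ± 73.2 in mLN (SD, n = 4), 135 ± 20.3 in thymus (SD, n = 4) and 133 ± 26.6 in spleen (SD, n = 4). The mLN level was 2.76-fold that of spleen (log2 fold change 1.47, SE 0.18, adjusted p = 1.81e-04) and 2.67-fold that of thymus (1.419, SE 0.18, adjusted p = 7.04e-05). The iLN level was 3.07-fold that of spleen (1.62, SE 0.19, adjusted p = 3.68e-05) and 2.97-fold that of thymus (1.57, SE 0.19, adjusted p = 6.87e-05). Over both LNs the difference from spleen and thymus was 1.52 on the log2 scale (SE 0.13, adjusted p = 1.60e-06). Thymus and spleen differed by 0.05 (95% interval −0.32 to 0.41) and iLN and mLN by 0.15 (−0.24 to 0.55), neither beyond the spread between samples. Within batch First alone the 4 differences between an LN and spleen or thymus were 1.29 to 1.82, and within batch Second alone 1.13 to 1.62, all in the same direction. In batch Second alone, with 1 iLN sample, none of the 4 was called, and in batch First alone the 2 with iLN were. With limma on log2(TPM + 1) the difference of mLN from spleen was 1.5015 (adjusted p = 0.0135) and was not called.

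Markers of NKT subsets also differed between the tissues. The summed CPM of 11 NKT17 markers was 780 to 1335 in iLN, 280 to 426 in mLN, 338 to 440 in spleen and 71.0 to 133 in thymus. Of the 10 markers tested 8 were called higher in iLN than in spleen, beside 1.55% of all genes in either direction. In mLN against spleen 2 NKT17 markers were called higher (Il1r1 and Sdc1), beside 0.654% of all genes in either direction. The summed CPM of 10 NKT1 markers was 1203 to 1913 in iLN, 1306 to 1742 in mLN, 1776 to 3190 in spleen and 2364 to 3358 in thymus. Of the 10 markers 7 were called lower in LNs than in spleen and thymus, beside 1.72% of all genes in either direction. The summed CPM of 9 NKT2 markers was 1223 to 1617 in iLN, 904 to 1130.3 in mLN, 638 to 792 in spleen and 763 to 877 in thymus. Of these markers 3 were called higher in LNs than in spleen and thymus, namely Zbtb16 (log2 fold change 0.71, adjusted p = 0.00538), which encodes PLZF, Icos (0.82, adjusted p = 2.90e-04) and Izumo1r (0.91, adjusted p = 0.00156), and Izumo1r was also called higher in thymus than in spleen (1.53, adjusted p = 2.92e-04). The summed CPM of 4 regulatory T cell markers was 540 to 715 in iLN, 295 to 484 in mLN, 375 to 503 in spleen and 179 to 250 in thymus. Of these Il2ra, the gene of an IL-2 receptor chain, was called higher in LNs than in spleen and thymus (2.09, adjusted p = 1.60e-06). Its means were 242 CPM in iLN, 129 in spleen, 103 in mLN and 9.98 in thymus, so that mLN was not above spleen. Foxp3, the defining gene of regulatory T cells, was called neither in that comparison nor in any pair of tissues. It had 6.50 to 15.2 CPM in iLN, 0 to 33.95 CPM in mLN and at most 2.24 in spleen and thymus. What part of the Tcf7 difference moved with subset make-up was not tested.

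Lef1 (ENSMUSG00000027985, chr3:131110471-131224356, + strand), the closest relative of Tcf7 among the 10, was highest in mLN. Values in mLN samples 1 to 4 were 255, 253, 234 and 216 CPM, above every sample of the other tissues. Spleen samples 1 to 4 held 122, 189, 141 and 163 CPM, iLN samples 2 to 4 held 154, 176 and 122 CPM, and thymus samples 1 to 4 held 125, 91.9, 117 and 138 CPM. These 3 tissues overlapped, with means of 154 ± 28.8 CPM in spleen (SD, n = 4), 150.5 ± 27.2 in iLN (SD, n = 3) and 118 ± 19.4 in thymus (SD, n = 4), beside 239 ± 18.5 in mLN (SD, n = 4). The mLN level was 2.02-fold that of thymus (log2 fold change 1.01, SE 0.17, adjusted p = 0.00157), which passed the test, but not with limma on log2(TPM + 1) (1.17, adjusted p = 0.0591). Against spleen the mLN difference was 0.64 (SE 0.17, adjusted p = 0.0732), and the iLN minus mLN difference was −0.67 (SE 0.19, adjusted p = 0.0815), both short of the threshold although the groups did not overlap. For iLN against spleen the difference was −0.03 (95% interval −0.42 to 0.36), and thymus differed from spleen by −0.37 (adjusted p = 0.434). Within the batches the difference of mLN from thymus was 0.81 in batch First and 1.22 in batch Second, neither called. The call over 4 tissues was lost without thymus replicate 1, 2 or 3 or without mLN replicate 1, 2 or 3, with adjusted p between 0.0110 and 0.0160, and with limma on log2(TPM + 1) (adjusted p = 0.151). Exons of Lef1 overlap those of the antisense gene Gm43352, which held 1786 counts over the 15 samples. Reads of such genes cannot be told apart without strand, and no strand setting is given in the sources used here.

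Axin2 (ENSMUSG00000000142, chr11:108920349-108950783, + strand), a scaffold of the β-catenin destruction complex and a feedback target of Wnt signalling, was highest in iLN. Its iLN values were 69.6, 103 and 57.8 CPM in samples 2 to 4. Thymus samples 1 to 4 held 26.8, 11.8, 36.6 and 42.1 CPM, spleen samples 26.8, 36.2, 23.4 and 31.1 CPM, and mLN samples 25.3, 10.9, 37.7 and 29.7 CPM. The iLN samples thus stood apart from all others, and the other 3 tissues overlapped with means between 25.9 and 29.4 CPM. The difference of iLN was 1.55 from mLN (SE 0.36, adjusted p = 0.0377), 1.34 from thymus (SE 0.36, adjusted p = 0.0465) and 1.27 from spleen (SE 0.36, adjusted p = 0.0573), and none passed the threshold of 0.01 in the main edgeR fit. DESeq2 gave adjusted p-values of 0.00180, 0.00772 and 0.00986 for them. Within the batches iLN differed from mLN by 1.26 in batch First and 1.93 in batch Second. The mLN, where Tcf7 was also high, differed from spleen in Axin2 by −0.28 (SE 0.34, adjusted p = 0.817), with the opposite sign in batch First alone (0.28).

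No gene of the wider canonical Wnt pathway was called in a pair of tissues, and 2 were called in LNs against spleen and thymus. Of 44 genes listed for the canonical pathway 31 were measured well enough to be tested. The 2 called of these 31, beside 1.72% of all genes tested in that comparison, were both higher in LNs: the co-receptor Lrp6 (log2 fold change 0.72, adjusted p = 0.00300) and Bcl9 (1.04, adjusted p = 0.00373), which links β-catenin to its coactivator Pygopus. Lrp6 had means of 155 CPM in mLN and 150.0 in iLN, beside 92.6 in spleen and 92.5 in thymus. Ctnnb1, which encodes β-catenin, had means between 187 and 197 CPM in the 4 tissues. Most Frizzled receptors were at or near 0, and Fzd5 was the most abundant with means of 17.9 to 38.4 CPM. Of 12 Wnt target and feedback genes, with Rnf43 and Znrf3 also in the pathway list, 6 were tested. Only Myc was called in any pair, at 1.34 higher on the log2 scale in thymus than in spleen (adjusted p = 0.00709). The feedback ligase Rnf43 had a mean of 27.7 CPM in iLN, where Axin2 was highest, and 8.31 to 9.03 CPM elsewhere, and it was not called in any pair. Znrf3 was not highest in iLN, with means of 96.9 CPM in spleen, 85.1 in mLN, 82.9 in iLN and 68.5 in thymus. The median log2 fold change of the pathway list was 0.11 in LNs against spleen and thymus, beside 0.02 for all genes tested.

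Several genes associated with TCF-1 in naive and memory T cells were higher in LNs. Of 16 such genes 15 were tested, and 5 were called higher in LNs than in spleen and thymus, with none lower. Of all genes tested 1.72% were called in that comparison, in either direction. They included the migration receptor genes Ccr7 (log2 fold change 2.10, adjusted p = 7.65e-04) and S1pr1 (1.27, adjusted p = 1.25e-04), the IL-7 receptor gene Il7r (0.59, adjusted p = 0.00410) and Nt5e (1.14, adjusted p = 6.68e-04), which encodes CD73. The median of the list was 0.58, beside 0.02 for all genes. The LNs were not alike in this list. The mean of Il7r in mLN (603 CPM) lay between those of spleen (490) and thymus (734), beside 1285 in iLN. Il7r was higher in iLN than in mLN (1.18, adjusted p = 6.08e-04) and Slamf6 was lower (−2.57, adjusted p = 6.21e-05), with means of 32.4 CPM in iLN, 218 in mLN, 77.0 in spleen and 42.1 in thymus. In mLN against thymus Foxo1 was also called higher (0.99, adjusted p = 4.62e-04), as it was in iLN against thymus (0.88, adjusted p = 0.00314). The list was chosen with earlier results of these data known.

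Tox (ENSMUSG00000041272, chr4:6686353-6991557, − strand), which encodes a high mobility group factor induced by TCR signals, was lowest in spleen. Spleen samples 1 to 4 held 26.3, 28.6, 37.9 and 29.9 CPM. Thymus samples 1 to 4 held 152, 80.9, 89.8 and 92.8 CPM, mLN samples 125, 59.6, 84.5 and 73.0 CPM, and iLN samples 2 to 4 held 91.7, 66.4 and 58.3 CPM. No spleen sample reached the lowest sample of another tissue, and the other 3 tissues overlapped each other. Means were 104 ± 32.3 CPM in thymus (SD, n = 4), 85.6 ± 28.4 in mLN (SD, n = 4), 72.1 ± 17.4 in iLN (SD, n = 3) and 30.6 ± 5.05 in spleen (SD, n = 4). The thymus level was 3.37-fold that of spleen (log2 fold change 1.75, SE 0.26, adjusted p = 3.90e-04) and the mLN level 2.78-fold (1.47, SE 0.25, adjusted p = 0.00480). For iLN the difference of 1.25 from spleen (SE 0.27) had an adjusted p of 0.0110 and was not called, but it was called with RLE normalization (adjusted p = 0.00925), with a minimum of 10 counts in every sample (adjusted p = 0.00629), with a block for the replicate number (adjusted p = 0.00623) and by DESeq2 (adjusted p = 4.37e-04). The mLN call was lost on leaving out spleen replicate 1, 2 or 4 or mLN replicate 1, 3 or 4, with log2 fold changes of 1.25 to 1.51 and adjusted p between 0.0125 and 0.0271. It was also lost with limma on log2(TPM + 1) (adjusted p = 0.0293) and with only the samples of these tissues in the fit (adjusted p = 0.0241). Differences from thymus were −0.28 in mLN (adjusted p = 0.700) and −0.51 in iLN (adjusted p = 0.364), neither beyond the spread between samples. In batch Second alone the 3 differences from spleen were 2.09 in thymus, 1.75 in mLN and 1.72 in iLN, and in batch First alone they were 1.4203, 1.2 and 0.86, none of them called.

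Tox2 (ENSMUSG00000074607, chr2:163203125-163324170, + strand), a relative of Tox, was barely detected, with 0 to 27 counts per sample. The iLN samples 2 to 4 held 4.84, 4.33 and 3.93 CPM, above all other samples, of which the highest was 3.58 CPM in thymus replicate 3. Thymus ranged from 1.52 to 3.58 CPM, mLN from 0 to 1.73 CPM and spleen from 0.150 to 1.5 CPM. The difference of iLN was 2.52 from spleen (SE 1.04, adjusted p = 0.214) and 2.16 from mLN (SE 1.02, adjusted p = 0.352), and no difference of Tox2 passed the test at this depth. A further relative, Tox4, had means of 90.2 to 122 CPM, and Tox3 was at 0 in every sample.

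Id2 and Id3 encode helix-loop-helix proteins without a DNA-binding region, which hold E proteins away from DNA. Id2 (ENSMUSG00000020644, chr12:25093799-25097140, − strand) was by far the more abundant in every sample. Its lowest and highest values were 238 and 324 CPM in spleen, 239 and 305 CPM in thymus, 153 and 245 CPM in mLN, and 192 and 261 CPM in iLN, so that all 4 tissues overlapped. Against spleen, Id2 differed by −0.49 in mLN (SE 0.17, adjusted p = 0.186), by −0.25 in iLN (95% interval −0.63 to 0.13) and by −0.08 in thymus (−0.43 to 0.26). None of these passed the test.

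Id3 (ENSMUSG00000007872, chr4:136143497-136145755, + strand), an early target of TCR signals, was lowest in spleen, like Tox. Spleen samples 1 to 4 held 2.86, 0.150, 3.24 and 1.83 CPM, from 1 to 29 counts. Thymus samples 1 to 4 held 11.4, 11.8, 10.7 and 14.4 CPM. The LN samples were more scattered, with 20.9, 4.64, 25.0 and 10.2 CPM in mLN samples 1 to 4 and 15.3, 5.69 and 5.13 CPM in iLN samples 2 to 4. Every sample outside spleen was above every spleen sample. The differences from spleen were 2.91 in mLN (SE 0.69, adjusted p = 0.0398), 2.58 in thymus (SE 0.69, adjusted p = 0.0535) and 2.11 in iLN (SE 0.72, adjusted p = 0.121), large but short of the threshold of 0.01 at these counts. DESeq2 gave adjusted p-values of 6.00e-04 for mLN and 0.00261 for thymus. As a share of the summed TPM of Id2 and Id3, which have nearly the same transcript length, Id3 made up 1.24%, 0.0468%, 1.35% and 0.760% in spleen samples 1 to 4. In thymus the share was 3.81%, 3.68%, 4.28% and 5.91%, in mLN 12.0%, 1.91%, 12.9% and 3.97%, and in iLN samples 2 to 4 it was 5.75%, 2.85% and 1.91%. The share in spleen thus stayed below that of every other sample, and in mLN it differed several-fold between samples. Like Id2 and Id3, the 3 genes of their E protein partners, Tcf3, Tcf4 and Tcf12, were called neither in any pair of tissues nor in LNs against spleen and thymus. Tcf4 ran from 0.123 to 21.2 CPM and Tcf3 from 14.2 to 53.1 CPM over the samples. Tcf12, which encodes HEB, was the most abundant of them by CPM, with means of 136 in thymus, 173 in mLN, 186 in iLN and 199 in spleen.

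**Figure D3:**
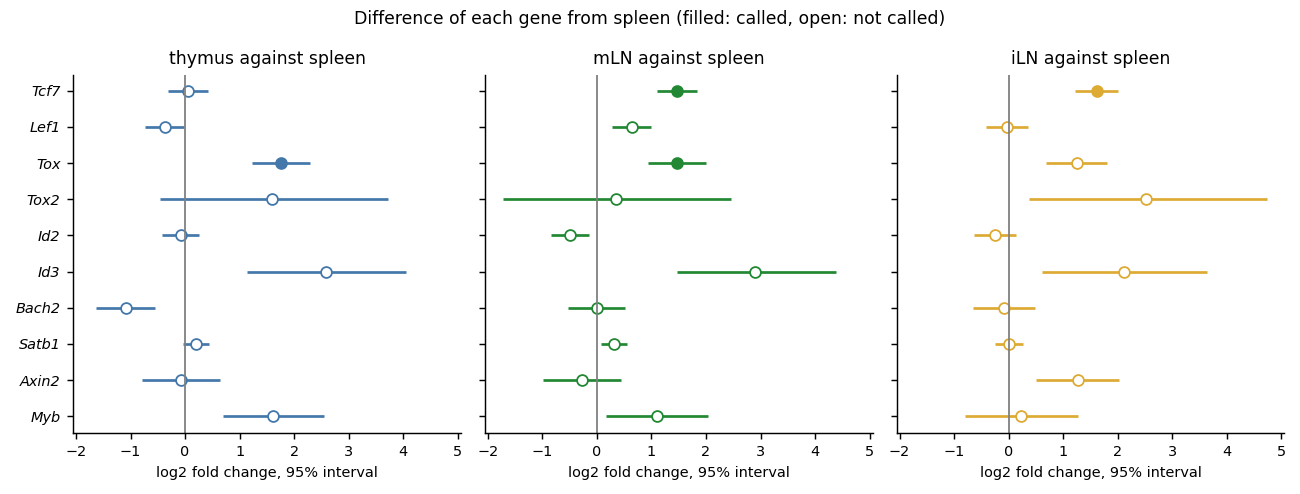
Log2 fold change of each of the 10 genes in thymus, mLN and iLN against spleen, with 95% intervals of the edgeR fit, filled where called. Tcf7 in mLN (1.47) and iLN (1.62) and Tox in thymus (1.75) and mLN (1.47) are filled, and Id3 and Tox2 have the widest intervals.

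Bach2 (ENSMUSG00000040270, chr4:32238804-32586108, + strand), a repressor of effector genes, had its lowest level in thymus. Thymus samples 1 to 4 held 33.2, 59.5, 27.5 and 50.7 CPM. Spleen samples held 131, 84.8, 75.0 and 76.1 CPM, mLN samples 138, 73.4, 83.0 and 71.1 CPM, and iLN samples 2 to 4 held 115, 57.7 and 76.1 CPM. Every spleen and mLN sample was above the thymus samples, but 1 iLN sample was not. The differences were −1.09 for thymus from spleen (SE 0.26, adjusted p = 0.0247), 1.09 for mLN from thymus (SE 0.26, adjusted p = 0.0224) and 1.01 for iLN from thymus (SE 0.27, adjusted p = 0.0490). None was called at 0.01, while DESeq2 gave 0.00271 and 0.00257 for the differences of thymus from spleen and of mLN from thymus. Within the batches thymus differed from spleen by −0.95 in batch First and −1.27 in batch Second.

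Satb1 (ENSMUSG00000023927, chr17:51736187-51833290, − strand), a chromatin organiser, was the most even of the abundant genes. Its values were 920 to 989 CPM in thymus, 772 to 865 in spleen, 888 to 1130.1 in mLN and 675 to 909 in iLN. The mLN samples and the thymus samples were all above the spleen samples, yet by small amounts: the difference from spleen was 0.31 in mLN (SE 0.11, adjusted p = 0.232) and 0.20 in thymus (SE 0.11, adjusted p = 0.619). From mLN, iLN differed by −0.31 (SE 0.12, adjusted p = 0.270). No comparison of Satb1 passed the test. The gene spans 6 other annotated genes, of which Gm37248 alone held 16337 counts over the 15 samples, and the exons of 2 of them overlap those of Satb1, so that its counts are less certain than those of Tcf7.

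Myb (ENSMUSG00000019982, chr10:21124935-21160984, − strand), a factor of immature lymphocytes, was even in thymus and scattered elsewhere. Thymus samples 1 to 4 held 25.2, 24.3, 26.7 and 24.3 CPM and spleen samples 11.9, 4.51, 7.23 and 8.14 CPM, so that these groups did not overlap. In mLN the values split by batch, at 9.98 and 10.01 CPM in samples 1 and 2 of batch Second and 28.5 and 31.4 CPM in samples 3 and 4 of batch First. The iLN values were 3.77 CPM in batch Second and 12.5 and 19.2 CPM in batch First. Thymus differed from spleen by 1.62 (SE 0.44, adjusted p = 0.0621), mLN from spleen by 1.11 (SE 0.45, adjusted p = 0.291) and iLN from thymus by −1.38 (SE 0.50, adjusted p = 0.158), and none passed the test in the main edgeR fit. The difference of thymus from spleen was called by DESeq2 (adjusted p = 0.00671) and by edgeR with only these 2 tissues in the fit (adjusted p = 0.00850). The difference of mLN from spleen was 1.94 in batch First and 0.27 in batch Second, whereas that of thymus from spleen was 1.72 and 1.57.

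**Figure D4:**
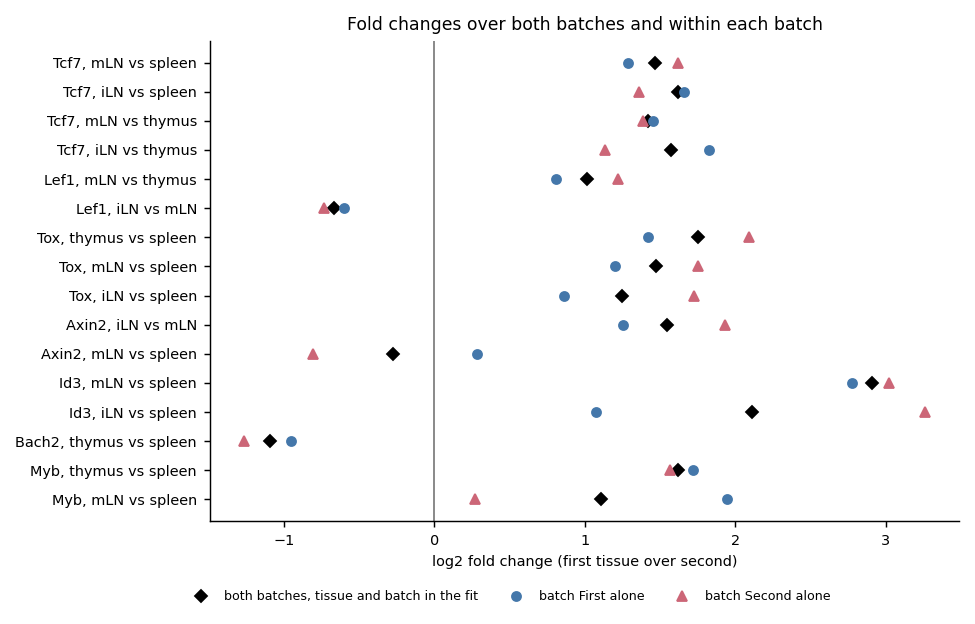
Log2 fold changes of 16 comparisons over both batches (diamonds) and within batch First (circles) and batch Second (triangles) alone, first tissue over second. The 4 comparisons of Tcf7 stay above 1 in both batches, while Axin2 in mLN against spleen is −0.80 in batch Second and 0.28 in batch First.

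Relatives outside the list were few. Of 11 family relatives 5 passed the filter (the most abundant being Tox4 and Axin1), and none was called in any pair of tissues or in LNs against spleen and thymus. Id1 and Id4 were at or near 0 in every tissue, as was Tcf7l2, and Tcf7l1 had means of 0.256 to 3.49 CPM.

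The genes whose log2 CPM followed each member most closely over the 15 samples were sought in a set of 10146 genes that averaged 5 CPM or more. Samples share tissues, batches and depth, so Pearson's r is given as a description. For Tcf7 they were Sdc1 (r = 0.883), a marker of NKT17 cells, Kcnc1 (0.881) and Gucy1a1 (0.880). For Lef1 they were Ikzf4 (0.884), Nrip1 (0.864) and Dtx4 (0.858), and for Axin2 Rara (0.867), Spen (0.862) and Ap1b1 (0.849). Tox was followed by Crem (0.918), St8sia1 (0.917) and Scd2 (0.875), Id3 by Actn1 (0.944), Rgs10 (0.897) and Skil (0.865), and Bach2 by Wwp1 (0.899), 1700008O03Rik (0.880) and Foxo1 (0.870). For Id2 they were Gm37010 (0.904), F2rl2 (0.872) and Rab19 (0.858), for Satb1 Lims1 (0.878), Fmnl3 (0.865) and Zfp280b (0.859), for Myb Thumpd1 (0.888), Litaf (0.820) and Hsph1 (0.800), and for Tox2 Jaml (0.840), Stab2 (0.835) and Ddx27 (0.811). Among the members themselves the closest pair was Tox and Id3 (r = 0.854), which were both lowest in spleen, followed by Id3 and Myb (0.548) and by Tcf7 and Lef1 (0.535). The most opposed pairs were Id2 with Lef1 (−0.637) and Id2 with Tcf7 (−0.636).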

How the data were processed

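RNA of sorted iNKT cells was sequenced from 15 samples with the NuGEN Ovation Ultralow kit. The authors trimmed paired-end reads with Cutadapt 1.7.1 and quantified them with RSEM 1.2.31 and Bowtie2 2.2.9 (versions from the submitters' processing notes) on mouse genome GRCm38. The expected counts that the authors deposited are RSEM's estimates of the fragments of each gene, in which fragments that align to several genes are shared. The deposited TPM values are these counts per base of effective gene length, set to an equal sum in each sample, and the deposited FPKM values were not used. The deposited gene lengths, weighted by isoform, were read as given.

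Symbols matched 48349 of 48795 gene IDs. Expected counts were rounded to whole numbers, filtered with filterByExpr of edgeR 4.0.16 (limma 3.58.1, R 4.3.3; 13600 genes left) and normalized with TMM (factors 0.755 to 1.18). A robust quasi-likelihood fit with tissue and batch over all 15 samples was used to compare the 6 pairs of tissues, both LNs with spleen and thymus, and all 4 tissues, with Benjamini-Hochberg adjustment over all genes tested. Genes were called at an adjusted p below 0.01 and a fold change over 1.5 (over 4 tissues, at the adjusted p alone). SEs and 95% intervals are those of the fit. Where replicates are not separate animals, p-values measure only the spread between these samples. Totals of 1152702 to 8670570 counts per sample limit precision most for Tox2 and Id3.

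All 10 genes are named in every comparison, with levels or with fold changes. From the gene lists, genes called in a comparison are named, besides defining markers of cell types, and for each of the 10 genes the 3 with the highest r. Some genes of the lists are not reported here. Cd79a, Ctnnb1, Fzd5, Rnf43, Znrf3, Tox4, Tcf12 and further uncalled relatives were named after their values were seen. The 10 genes and all lists were chosen with earlier results of these data known. The other settings tried were RLE normalization, DESeq2 1.42.0, testing all genes, a minimum of 10 counts per sample, tissue alone without batch, a block for the replicate number, limma on log2(TPM + 1), rRNA genes left out, each batch alone, only the groups compared, a threshold of 0.05 with no limit on the fold, and leaving out each replicate. Promoter windows and genome positions come from RefSeq and GENCODE annotations of GRCm38. Figures were drawn with Python 3.11.15 and matplotlib 3.10.9.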

Additional observations from a re-analysis of the deposited data

Results flagged for a closer look

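In thymus, Tox in replicate 1 stood at 151.7 CPM, apart from the other 3 samples at 80.9 to 92.8 CPM, and its gap to the nearest sample took 0.832 of the range of the group. It was the 1 group flagged among 30 groups of 4 samples (10 genes in thymus, spleen and mLN) by Dixon's criterion, which chance meets in about 1 of 20 groups. Without this sample Tox remained called in thymus against spleen.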

How the results depend on the processing

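Alternatives were followed for 45 fold changes of the 10 genes, most but not all of them given above. Of their 919 values under the alternatives, 909 had the same direction and 10 values, of 4 fold changes, had the other. The cause of the changes below was not tested. All 4 were small. Tcf7 in thymus against spleen was −0.0062 with limma on TPM, −0.16 in batch First alone and −0.057 to 0.17 on leaving out a replicate. Lef1 in iLN against spleen was 0.011 with limma on TPM and −0.16 to 0.085 on leaving out a replicate. Tcf7 in iLN against mLN was −0.25 in batch Second alone, and Axin2 in mLN against spleen was 0.28 in batch First alone.

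The number of the 10 genes called changed as follows. In thymus against spleen it was 2 at an adjusted p below 0.05, 4 with DESeq2, 3 without a filter, 2 with only the groups compared, and 0 in batch First and 0 in batch Second alone. In mLN against spleen it was 3 at 0.05, with DESeq2 and without a filter, 0 with limma on TPM, 0 in either batch alone, 1 with only the groups compared and 1 to 2 on leaving out a replicate. In iLN against spleen it was 2 at 0.05, 3 with DESeq2, 2 with RLE, 3 without a filter, 2 with at least 10 counts and 0 in batch Second. In mLN against thymus it was 3 at 0.05, with DESeq2 and without a filter, 0 in either batch, and 2 with limma on TPM, where Lef1 was lost and Bach2 gained. In iLN against thymus it was 3 at 0.05, 2 with DESeq2, 3 without a filter and 0 in batch Second. In iLN against mLN it was 1 at 0.05, with DESeq2 and without a filter. In LNs against spleen and thymus it was 2 at 0.05 and 0 in batch Second. Over 4 tissues it was 5 at 0.05, 7 with DESeq2, 6 without a filter, 2 with limma on TPM, 1 in batch First, 0 in batch Second and 2 to 3 on leaving out a replicate. Batches hold 7 or 8 samples, so that fewer samples enter these fits.

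Over all genes, the calls in thymus, mLN and iLN against spleen, mLN and iLN against thymus, iLN against mLN, LNs against spleen and thymus, and over 4 tissues, in this order, numbered 179, 89, 211, 217, 204, 64, 234 and 459. They numbered 353, 186, 530, 388, 468, 183, 579 and 894 at 0.05, 407, 266, 594, 428, 504, 303, 494 and 1090 with DESeq2, 393, 273, 544, 435, 480, 279, 532 and 1134 without a filter, 123, 29, 129, 156, 123, 40, 163 and 310 without the batch covariate, 101, 13, 87, 111, 108, 46, 104 and 212 with limma on TPM, 45, 0, 81, 55, 114, 23, 95 and 180 in batch First and 27, 0, 4, 31, 7, 3, 2 and 41 in batch Second. With only the groups compared the 6 pairs gave 313, 17, 86, 179, 144 and 20. Leaving out a replicate gave 114 to 147, 24 to 59, 108 to 170, 125 to 180, 104 to 171, 44 to 59, 158 to 255 and 327 to 493.

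Same-numbered samples of different tissues deviated together in 14 of 21 pairs at r above 0.1 (lowest r 0.00151), beside 11 of 21 pairs of the same batch with other numbers. After removal of batch means the same-number r was 0.00312 to 0.0633. For pairs of the same batch with other numbers it was −0.0633 to −0.00312. With 2 samples of a tissue in a batch, these ranges mirror each other by construction. The same-number pairs of 2 tissues in a batch also have the same r, so they do not count separately. Their r was above 0 throughout, but weak. Before that removal 10 of 15 samples correlated best with their own number, and not every same-number pair was above 0.1. The numbers were not used to pair samples in the main fit, and whether they mark a pairing was not settled. With the replicate block 2 of the 10 genes were called in iLN against spleen (Tcf7 and Tox), and the other counts of the 10 genes did not change. Depth limits Tox2 (0 to 27 counts per sample) and Id3 in spleen (1 to 29 counts).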
